A study of Mus musculus with 16 samples.

Results

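The control cultures of mouse jejunal enteroids, which are epithelial cultures grown from intestinal crypts, were described here as a reference transcriptome of differentiated jejunal epithelium. They were the 4 cultures labelled Control, of 16 cultures in the whole series, and were chosen by that label alone. The other 12 cultures carried a deletion or a G519R mutation of Myo5b, with or without the LPAR5 agonist Compound-1, and were not used. The study asked how MYO5B loss alters maturation and metabolism of the epithelium, and the controls are its baseline.

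According to the methods, control enteroids came from crypts of the jejunum of adult Vil1-CreERT2;Myo5b flox/flox mice, in which the villin promoter drives a tamoxifen-inducible Cre in intestinal epithelium. Vehicle (EtOH) took the place of 1 µM 4-OH-tamoxifen for 24 h, whereas the legend of the study calls the controls healthy littermates, and the labels give their genotype only as Control and their treatment as None. The cultures were individual cultures from 4 mice, passaged 2 times in growth medium, and then held for 2 days in differentiation medium with 5% Noggin and 5% R-spondin conditioned media, from which Wnt ligands and EGF were withdrawn. RNA was taken from whole enteroids, so fewer cells of a type and less RNA per cell cannot be told apart.

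The epithelium of the small intestine is renewed from stem cells at the crypt base, which lie among Paneth cells, the source of antimicrobial peptides. Their progeny divide in the crypt and then mature into absorptive enterocytes or into secretory goblet, enteroendocrine and tuft cells. Along the gut, the proximal small intestine absorbs most sugars and fats, and the ileum takes up bile acids and vitamin B12.

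Messenger RNA was selected by poly(A) capture and sequenced, and the deposited values are read counts per gene and FPKM, which scales those counts by the length of the gene and the size of the library. Between 31684240 and 36920083 reads were counted on 54532 genes in each culture. FPKM is used throughout as the level of a gene, with the values of cultures 1, 2, 3 and 4 given in that order. Errors are the SD over the 4 cultures, and no test against another group was made. For a gene with no read, the limit given is the FPKM of 3 counts in the shallowest library, which covers counting error only.

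Culture 1 stood apart from the other 3. Over the 12306 expressed genes, defined as a mean over 1 FPKM, Pearson's r of log2(FPKM + 1) was 0.916 to 0.929 between culture 1 and the others and 0.985 to 0.989 among cultures 2, 3 and 4. Culture 1 lay farthest from the mean of the 4 for 8498 of the 12306 genes (69.1%). The FPKM values of all genes together summed to 361419 in culture 1 and to 503827, 539258 and 552374 in the others. With FPKM rescaled to the same sum in each culture, the median expressed gene was 0.61 log2 units higher in culture 1 than in the mean of the others, against 0.05 on FPKM as deposited. Of all expressed genes, 39.4% were lowest and 45.0% highest in culture 1 on deposited FPKM. When rescaled, 16.4% were lowest and 73.1% highest there, so a highest value in culture 1 is then the usual state of a gene. Of the genes described here, 88 were lowest in culture 1 on deposited FPKM, and 54 of them were so when rescaled. All 62 that were highest in culture 1 stayed highest when rescaled. This had to be so, because culture 1 had the smallest FPKM sum, and it is no check of those genes. Directions are given on deposited FPKM, and those that turned are named beside the values.

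Of the 54532 genes, 12306 had a mean over 1 FPKM, 4965 over 10 FPKM, 615 over 100 FPKM and 61 over 1000 FPKM. In the single cultures, 12169, 12376, 12335 and 12297 genes exceeded 1 FPKM, and 11250 exceeded it in all 4. No read was counted on 27868 genes in any control culture. Protein-coding genes made up 10493 of the expressed genes (85.3%), pseudogenes 897 and long noncoding biotypes 535. The 10493 were among 22046 protein-coding genes in all, and counts of list members over 1 FPKM are to be read beside that share. The protein-coding genes held 86.0% to 90.9% of the FPKM sum of a culture.

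The most abundant transcripts were mostly those of respiration and translation. The 10 genes with the highest mean held 15.5%, 20.2%, 22.7% and 22.8% of the FPKM sum of cultures 1 to 4, and the leading 100 held 36.1% to 47.9%. Of the 25 most abundant genes, 7 were encoded by the mitochondrial genome and 9 were cytosolic ribosomal proteins. The same 25 genes were the most abundant without culture 1.

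The most abundant transcript was mt-Co1, a subunit of cytochrome c oxidase, at 18092, 26783, 32231 and 27617 FPKM. It was followed by mt-Nd1, a subunit of complex I, at 7579, 18609, 22675 and 20237 FPKM. Both were lowest in culture 1, but mt-Co1 was not when rescaled. Mitochondrially encoded genes together held 14.8% to 19.1% of the FPKM sum, and the cytosolic ribosomal proteins held 13.2% to 17.1%.

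Among nuclear genes with a known function, the elongation factor Eef1a1 (rank 6) stood at 6323 ± 772 FPKM (SD, n = 4) and Rplp1, a protein of the ribosomal stalk (rank 7), at 5770.1 ± 1849 FPKM. Their levels are those of the cells' translation machinery and were lower in culture 1 than in each of the others, but when rescaled Eef1a1 was highest there. Without culture 1 they stood at 6661 ± 456 and 6651 ± 685 FPKM (SD, n = 3). Gm23935, listed at rank 3, is annotated as a miRNA of 57 bases, shorter than the 150 to 200 bp fragments selected for the libraries. Its values were 2173, 8878, 15358 and 25619 FPKM, and a rank based on so short a length is uncertain. Gm15772, at rank 11 with 3673 ± 478 FPKM, is a processed pseudogene annotation, whose reads may be shared with the parent gene.

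The first gene in the order that marks a lineage was Fabp1, the liver-type fatty acid-binding protein of enterocytes (ENSMUSG00000054422, chromosome 6, 71199827 to 71205023; GRCm38), at rank 8. Its level was 439, 7799, 6456 and 6911 FPKM. It was high in cultures 2, 3 and 4 and low in culture 1, with 17.8-fold between culture 2 and culture 1. Defa24, an alpha-defensin of Paneth cells, had rank 12 at 1092, 4327, 3737 and 4764 FPKM. Mt1, a metal-binding metallothionein, Lgals2, a galactose-binding lectin, and Lyz1, the Paneth cell lysozyme, were also among the leading 25, with means of 2401, 2167 and 1755 FPKM, and of 2847, 2672 and 1952 FPKM without culture 1. All of these were lowest in culture 1, although Lyz1 was not when rescaled.

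**Figure D1:**
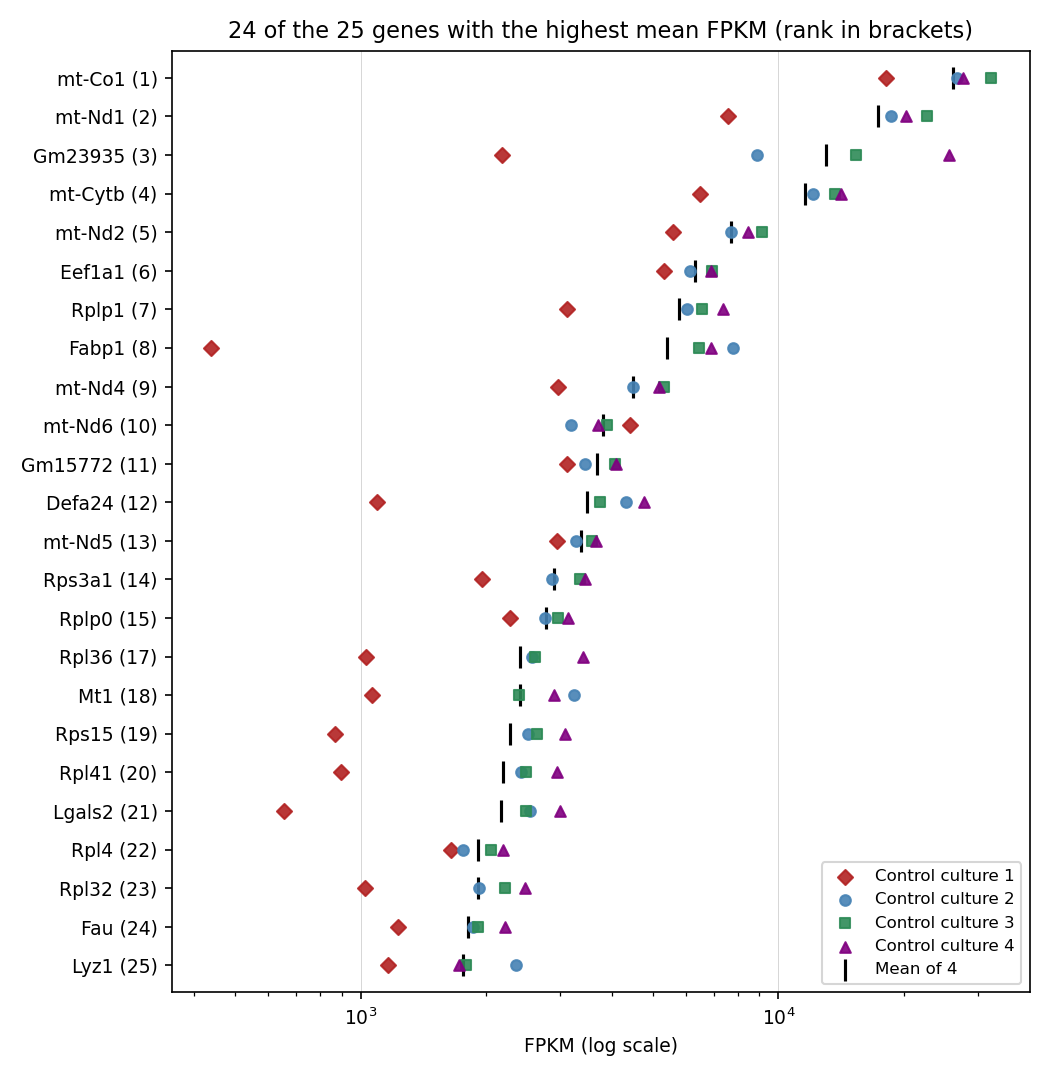
FPKM (horizontal log axis) of 24 of the 25 genes with the highest mean, with 1 point per control culture, a vertical bar for the mean and the rank in brackets. Mitochondrial and ribosomal genes fill most rows, and Fabp1 has its culture 1 point at 439 FPKM against 6456 to 7799 FPKM in the others.

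The cultures carried the general markers of epithelium. Krt8 and Krt19, keratins of simple epithelia, were at 1524, 1157, 1117 and 1055 FPKM and 838, 703, 684 and 664 FPKM. Epcam, an epithelial adhesion molecule, was at 538, 614, 598 and 680.1 FPKM. Cdh1, the epithelial cadherin, was at 215, 81.1, 91.8 and 82 FPKM, with the highest value in culture 1.

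Marker lists were then summed for each lineage. The summed FPKM of the list is not a cell count, because each list is led by its most abundant genes. The enterocyte list (20 genes) was the highest at 3246, 19784, 16729 and 16266 FPKM, and the Paneth list (15 measured genes) followed at 4252, 11494, 10144 and 11446 FPKM. Without culture 1 they were at 17593 ± 1911 FPKM and 11028 ± 766 FPKM (SD, n = 3). In culture 1 the order of these lists was the opposite, with 4252 FPKM for Paneth and 3246 FPKM for enterocyte genes. The goblet list was at 2109, 2632, 2748 and 3149 FPKM, and the enteroendocrine list at 1067, 865, 785 and 944 FPKM. The tuft list was far below them at 29.9, 13.2, 15.3 and 16.8 FPKM, and in that list culture 1 was the highest.

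**Figure D2:**
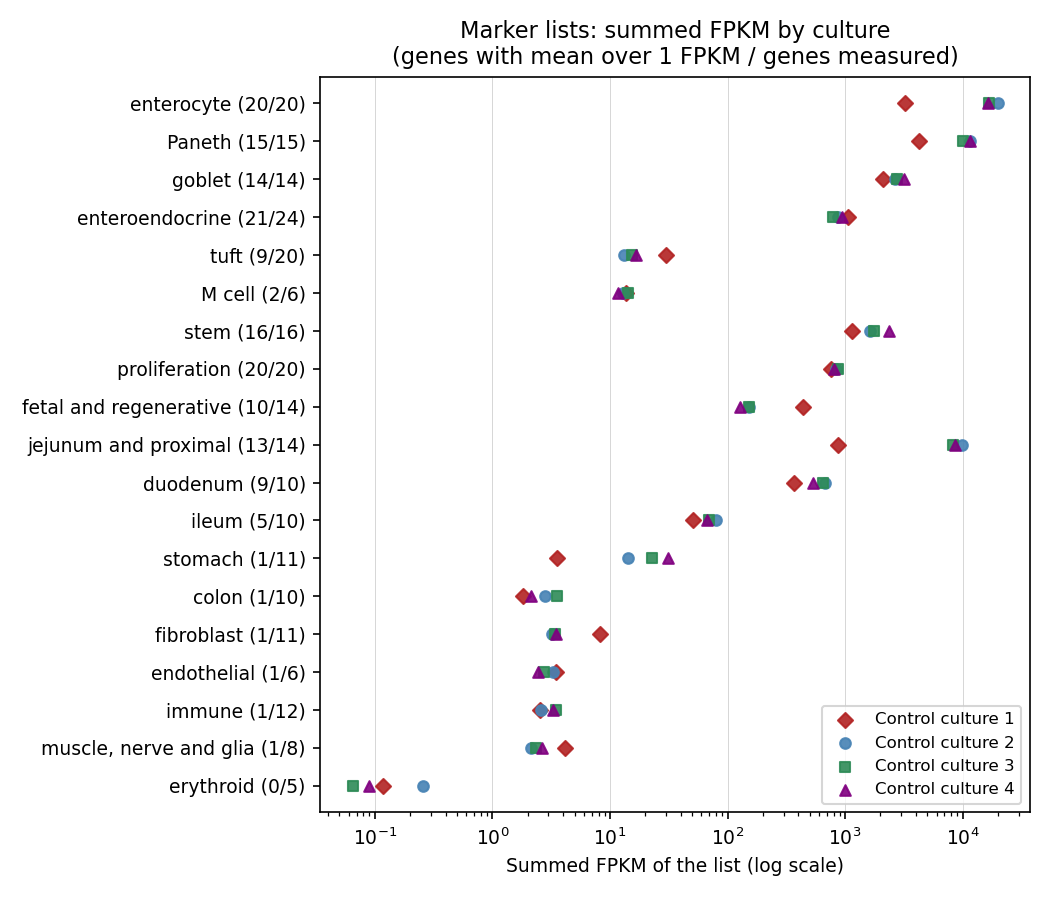
Summed FPKM (log axis) of marker lists in each control culture, with 1 point per culture and, in brackets, how many of the measured genes had a mean over 1 FPKM. Enterocyte and Paneth lists lie highest, and colon, fibroblast, endothelial and immune lists stay below 10 FPKM.

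All 20 enterocyte genes had a mean over 1 FPKM in every culture, and 19 had a mean over 10 FPKM. Apoa1 and Apoa4, apolipoproteins of chylomicrons, were at 357, 2195, 1669 and 1705 FPKM and 144, 517, 554 and 537 FPKM. Fabp2, the intestinal fatty acid-binding protein, was at 123, 1320.5, 988 and 920.4 FPKM. Rbp2, the cellular retinol-binding protein of enterocytes, was at 78.1, 1080.0, 891 and 824 FPKM. In all 4 of these genes culture 1 was the lowest, and the highest culture exceeded it by 3.84-fold for Apoa4 and by 13.8-fold for Rbp2.

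Brush border hydrolases, which finish the digestion of sugars and peptides at the microvilli, were expressed in 16 of 19 measured genes. Sis, the sucrase-isomaltase, was at 178, 645, 469 and 463 FPKM. Alpi, the intestinal alkaline phosphatase and a marker of mature enterocytes, was at 69.4, 151, 199 and 107 FPKM. Mgam, the maltase-glucoamylase, was at 83.2, 89.8, 73.5 and 67.6 FPKM and highest in culture 1 when rescaled. Lct, the lactase of suckling and proximal intestine, had only 5.75, 5.43, 3.43 and 3.82 FPKM.

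The peptidases Anpep (40, 38.7, 40.8 and 36.4 FPKM) and Dpp4 (22.8, 33.8, 29.7 and 30.8 FPKM) were steady across cultures on deposited FPKM. Tmprss15, the enteropeptidase of the duodenum, had a mean of 0.143 FPKM, and Folh1 had no read, a limit of 0.0333 FPKM. The most abundant hydrolase was thus Sis and the least was Folh1.

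Nutrient transporters had a mean over 1 FPKM in 21 of 22 genes. Slc5a1, the sodium-coupled glucose transporter SGLT1, led them at 133, 234, 195 and 177 FPKM. Slc2a2 and Slc2a5, which carry glucose and fructose across the basal and apical membranes, were at 20.1, 43.9, 37.3 and 30 FPKM and 10.7, 37.1, 33.8 and 34.8 FPKM. Culture 1 was the lowest in all 3, but when rescaled only in Slc2a5. Slc15a1, the oligopeptide transporter, was at 3.8, 9.62, 5.75 and 4.77 FPKM, and Slc3a2, a heavy chain of amino acid transporters, was at 65.5, 26.1, 27.2 and 25.9 FPKM, with culture 1 the highest.

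The genes of fat absorption were expressed in 20 of 21 cases. Mttp, which loads lipid onto apolipoprotein B, was at 103, 228, 195 and 165 FPKM. Apob itself was at 40.8, 146, 92.6 and 88 FPKM. Sar1b, a small GTPase of chylomicron export, was at 122, 217, 209.7 and 191 FPKM. Dgat1, the last enzyme of triglyceride synthesis, was at 75.1, 108, 100.0 and 99.8 FPKM, and Npc1l1, the cholesterol importer, was at 27.8, 24.6, 21.1 and 18.7 FPKM with culture 1 the highest. Soat2, which esterifies cholesterol, was also highest in culture 1 (48, 26.6, 22.3 and 20.8 FPKM). Apoc2 was the only gene in this list under 1 FPKM, with a mean of 0.112.

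The structural genes of the microvillus were high in all 4 cultures, in 19 of 20 cases over 1 FPKM. Vil1, the actin bundler villin whose promoter drives the Cre, was at 78.4, 123, 114 and 106 FPKM. Ezr, the ezrin that ties actin to the membrane, was at 123, 98.3, 109 and 89.1 FPKM, and Myo1a, a brush border myosin, was at 51.7, 82.9, 64.6 and 56.9 FPKM. Myo5b, the motor of apical recycling that the series targets (ENSMUSG00000025885), was at 16.2, 22.8, 19 and 17.4 FPKM, and its partners Rab11a and Rab8a were at 26.5, 35.4, 36.6 and 32.9 FPKM and 16.9, 32.6, 32.2 and 35.4 FPKM. Tmigd1, an adhesion protein of mature brush borders, had a mean of 0.251 FPKM and so lay under the threshold.

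Of the regional lists, the jejunum and proximal list had the highest sum in each culture. Its members Fabp1, Rbp2 and Apoa4 are also in the enterocyte list, so its sum repeats part of that one. The median member had a mean of 29.7 FPKM in the jejunum and proximal list, 17.9 FPKM in the duodenum list and 4.98 FPKM in the ileum list. The jejunum and proximal list had 13 of 14 genes over 1 FPKM and summed to 870.5, 9779.5, 8248 and 8631 FPKM, mostly by Fabp1, or 8886 ± 797 FPKM (SD, n = 3) without culture 1. The duodenum list had 9 of 10 and summed to 364, 680.2, 652 and 532 FPKM. The ileum list had 5 of 10 and summed to 51.3, 80, 70.2 and 67.4 FPKM, the colon list had 1 of 10 and 1.83, 2.82, 3.51 and 2.12 FPKM, and the stomach list had 1 of 11 and 3.52, 14.3, 22.9 and 31.1 FPKM. Fabp1 and Rbp2 are shown with the ileal Fabp6 because they span the range of regional levels. The sequences are RefSeq windows of GRCm38.p6 from 250 bases before to 50 bases after the start of 1 transcript, in lower case, with capitals for TATAAA (the TATA box), CAAAGTC (letters of HNF4 sites) and GTTAAT (letters of HNF1 sites) on either strand.
Fabp1, chr6:71199629-71199928, + strand: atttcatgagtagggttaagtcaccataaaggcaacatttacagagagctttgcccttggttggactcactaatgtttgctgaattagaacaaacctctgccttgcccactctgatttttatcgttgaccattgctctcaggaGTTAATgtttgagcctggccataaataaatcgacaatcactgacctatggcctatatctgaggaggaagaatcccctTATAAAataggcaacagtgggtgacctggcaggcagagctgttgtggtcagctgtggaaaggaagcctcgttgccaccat
Rbp2, chr9:98490287-98490586, + strand: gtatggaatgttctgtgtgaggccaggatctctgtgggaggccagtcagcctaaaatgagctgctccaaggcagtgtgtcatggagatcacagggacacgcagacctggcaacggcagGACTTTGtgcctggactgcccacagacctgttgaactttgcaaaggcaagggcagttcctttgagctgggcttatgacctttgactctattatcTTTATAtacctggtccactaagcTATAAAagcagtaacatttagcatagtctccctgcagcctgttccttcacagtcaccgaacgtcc
Fabp6, chr11:43601513-43601812, - strand: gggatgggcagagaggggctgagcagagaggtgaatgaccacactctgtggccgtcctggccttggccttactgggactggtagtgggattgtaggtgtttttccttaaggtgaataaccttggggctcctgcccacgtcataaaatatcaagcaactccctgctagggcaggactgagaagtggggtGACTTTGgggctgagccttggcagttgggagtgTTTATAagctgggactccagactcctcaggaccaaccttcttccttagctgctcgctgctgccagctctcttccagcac

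Fabp1 held TATAAA on the gene strand starting 30 bases before the start and GTTAAT starting 107 bases before it. Rbp2 held TATAAA starting 15 bases before the start and also on the opposite strand, and CAAAGTC on the opposite strand. Fabp6, which had a mean under 1 FPKM, held TATAAA 29 bases and CAAAGTC 62 bases before the start, both on the opposite strand. The matches do not overlap each other in these windows. Among 32544 RefSeq windows of the same length, 13.6% held TATAAA, 4.47% CAAAGTC and 7.13% GTTAAT on either strand. TATAAA on the gene strand, 40 to 20 bases before the start, was in 1.86%. Of the 18 enterocyte genes with a window, 7 held TATAAA and 2 held GTTAAT, and of the 8 ileum genes with a window, 2 held TATAAA. A match of these letters is a description of the window only.

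Gata4, the transcription factor of the proximal small intestine, was at 36.7, 26.5, 29.7 and 28.5 FPKM. Gata6, which extends to the ileum, was at 18.9, 13, 13.8 and 14 FPKM. Onecut2, a proximal factor, was at 8.47, 6.77, 7.48 and 5.59 FPKM, and its paralog Onecut3 had a mean of 0.273 FPKM. Creb3l3, a regulator of fat metabolism, was at 17.1, 54.3, 47.4 and 43.5 FPKM and lowest in culture 1, as was Mogat2, an acyltransferase of fat resynthesis, at 31.4, 69, 60.2 and 55.1 FPKM.

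Genes of the duodenum were present at lower or mixed levels. S100g, the calcium-binding calbindin, was at 142, 374, 392 and 285 FPKM, and Cybrd1, an iron reductase, was at 25.9, 22.3, 32.2 and 20.6 FPKM. Pdx1, a duodenal and pancreatic factor, was at 0.475, 0.747, 2.62 and 0.512 FPKM, with culture 3 the only one over 1 FPKM. Trpv6, a calcium channel, had no read in any culture, a limit of 0.0272 FPKM.

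Genes of the ileum that handle bile acids had low or mixed levels. Slc10a2, the apical bile acid transporter, was at 0.613, 0.334, 0.39 and 0.361 FPKM, and Fgf15, the bile acid-induced hormone, was at 0.579, 0.0948, 0.0407 and 0.0816 FPKM. Fabp6, the bile acid-binding protein, was at 0, 1.01, 0.65 and 1.12 FPKM, with no read in culture 1 and a limit of 0.223 FPKM. Slc51a and Slc51b, subunits of the basolateral bile acid exporter, were higher at 6.69, 13.5, 8.94 and 7.96 FPKM and 1.27, 13.1, 11.5 and 11.2 FPKM. Slc51b was lowest in culture 1 and at nearly equal levels in the others.

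Markers of other gut regions were absent or low. Car1, a colonic carbonic anhydrase, the posterior factors Hoxd10 to Hoxd13 and Retnlb had no read. Hoxb13 had a mean of 0.00365 FPKM. Aqp8, an aquaporin of the colon, was at 0.0982, 1.57, 2.22 and 1.29 FPKM. The stomach genes Tff1, Muc5ac and Sox2 had no read, but Gkn3, a gastrokine, was at 2.18, 12.9, 21.1 and 29.2 FPKM, the only stomach marker over 1 FPKM. None of 39 Hox genes had a mean over 1 FPKM, and 19 had no read.

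**Figure D3:**
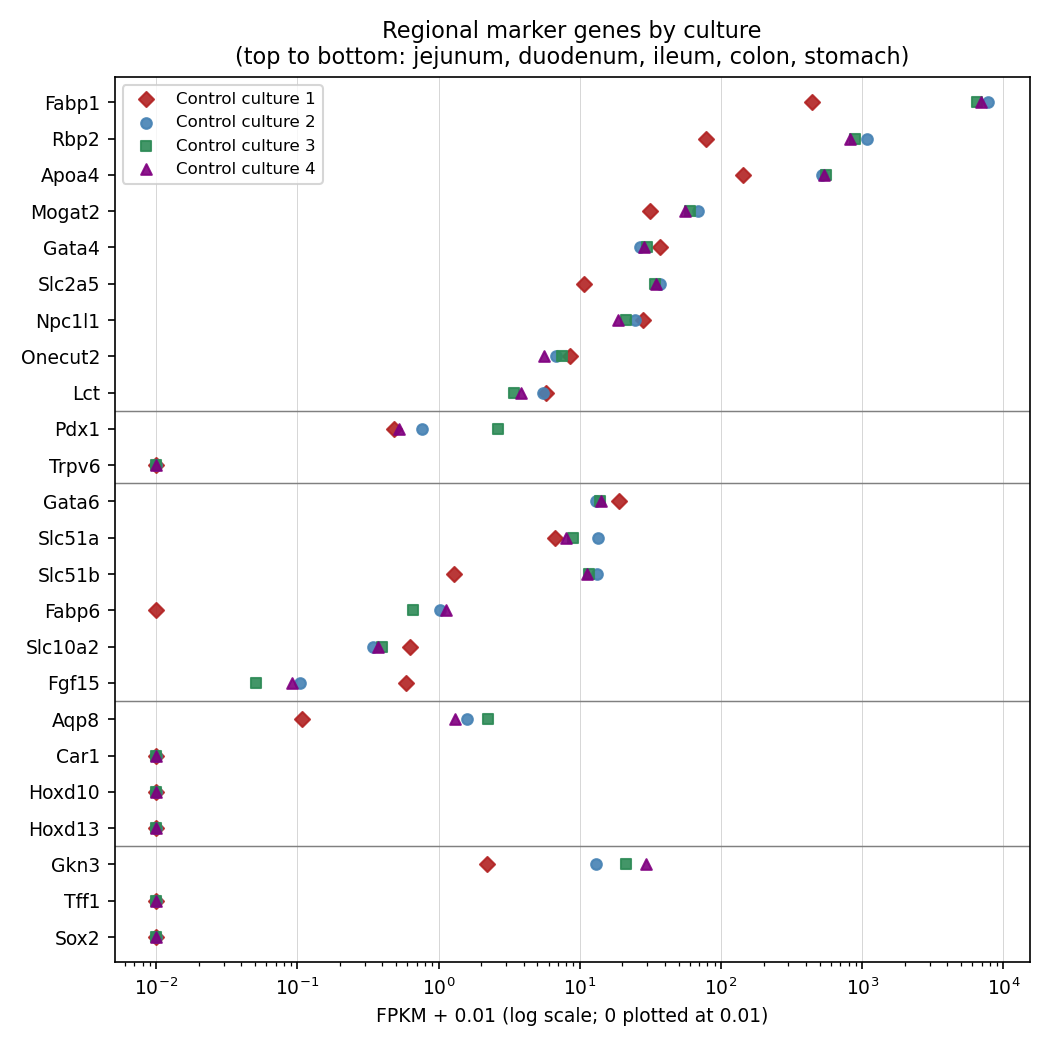
FPKM plus 0.01 (log axis, with 0 drawn at 0.01) of regional marker genes, with 1 point per control culture and horizontal lines between jejunal, duodenal, ileal, colonic and stomach genes. The duodenal genes drawn are only Pdx1 and Trpv6, although 9 of 10 genes of the duodenum list had a mean over 1 FPKM. Fabp1 and Rbp2 lie at the top of the range, Fabp6, Slc10a2 and Fgf15 at about 1 FPKM or less, and Car1, Hoxd10, Hoxd13, Tff1 and Sox2 at 0.

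Genes of the base, middle and tip of the villus were all expressed, in 8 of 8, 8 of 8 and 12 of 12 cases with a mean over 1 FPKM. The villus base genes Lypd8, which restrains flagellated bacteria, and Reg3b, an antimicrobial lectin, were at 1175, 1039, 847 and 801 FPKM and 12.8, 246, 144 and 150.0 FPKM. Reg3b and Reg3a (67.6, 445, 244 and 354 FPKM) were lowest in culture 1, with a range over the cultures of 19.2-fold and 6.59-fold, whereas Lypd8 was highest there. At the villus tip, Ada, the adenosine deaminase, was at 19.4, 36.1, 23.2 and 14.1 FPKM, and Nt5e, which makes adenosine, was at 4.57, 0.371, 0.145 and 0.108 FPKM, over 1 FPKM only in culture 1. Because the sums are led by different genes, levels of the lists give no position of the cells along a villus.

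Goblet, Paneth, enteroendocrine and tuft genes all had members in the cultures. All 14 goblet genes had a mean over 1 FPKM in every culture. Tff3, the trefoil peptide of goblet cells, was at 817, 1276, 1364 and 1579.7 FPKM, and Spink4, a secreted protease inhibitor, was at 944, 947, 1019 and 1158 FPKM. Agr2, a chaperone of mucin folding, was at 158, 188, 181 and 217 FPKM. All 3 were lowest in culture 1, Spink4 by only a small margin, but when rescaled Spink4, Agr2 and the goblet list sum were highest there. With library sizes from TMM, the scaling of edgeR, the goblet list sum stayed lowest in culture 1 (1904, 2434, 2510 and 2914).

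Muc2, the gel-forming mucin, was at 25.3, 6.11, 5.17 and 6.54 FPKM and so highest in culture 1. Fcgbp, a mucin-binding protein, was at 83.9, 31.5, 31.3 and 25.4 FPKM, also highest in culture 1. Zg16, a lectin of goblet granules, was at 2.82, 71.8, 52.8 and 56.2 FPKM, and so lowest there. The goblet factors Spdef and Atoh1, which drive the secretory fate, were at 9.26, 5.44, 5.97 and 7.01 FPKM and 7.72, 5.21, 6.23 and 6.93 FPKM. Muc2 is a long gene and Zg16 a short one. Gene length is described over all expressed genes with the spread of cultures, and its part in these values was not tested.

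Among mucins, the surface mucin Muc13 was at 83.7, 242, 237 and 227 FPKM and Muc3 at 52.3, 111, 102 and 65.4 FPKM. Muc3 and Muc3a share sequence, so the split of reads between them is uncertain. The gel-forming mucins of the stomach, Muc5ac and Muc6, were at 0 and 0.0724 FPKM.

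All 15 measured Paneth genes had a mean over 10 FPKM. Lyz1 was at 1165, 2351, 1783 and 1720.5 FPKM. Itln1, a lectin secreted by Paneth and goblet cells, was at 813, 1722, 1638 and 1691 FPKM, and Ang4, an antimicrobial ribonuclease, was at 271, 582, 543 and 515 FPKM. Mmp7, the protease that activates defensins, was at 105, 186, 221 and 231 FPKM. All 4 were lowest in culture 1, Lyz1 not when rescaled. Pla2g2a, an antimicrobial phospholipase, had 40.6, 39.3, 32.9 and 34.6 FPKM and did not follow this. The defensin genes are near-identical copies and their single values are uncertain. Low culture 1 values in this family included those of Defa3 (3.11, 57.9, 80.1 and 71.6 FPKM) and Defa20 (8.11, 126, 84.3 and 134 FPKM).

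Enteroendocrine genes were expressed in 21 of 24 cases, with hormones of the upper and lower gut together. Cck, which stimulates the gallbladder, was at 109.9, 180.4, 166 and 165 FPKM, and Gip, an incretin of the upper gut, was at 95.4, 158, 85.6 and 124 FPKM. Gcg, the precursor of GLP-1, was at 129.9, 91.7, 92.2 and 134 FPKM. Sct, the secretin, was at 8.14, 14.7, 13.2 and 20.1 FPKM and Sst, somatostatin, at 34.4, 12.9, 18.4 and 15.9 FPKM. Ghrl and Nts, hormones of the upper and lower gut, had means of 9.69 and 9.57 FPKM.

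Pyy, a hormone of the distal gut, had a mean of 3.13 FPKM. Chgb and Chga, granins of secretory granules, were at 116, 81.9, 112 and 115 FPKM and 26.9, 11.1, 14.4 and 12.9 FPKM. Tph1, which makes serotonin, was at 6.47, 2.7, 3.68 and 2.85 FPKM, and Neurog3, the factor of endocrine progenitors, was at 5.97, 5.53, 4.93 and 4.52 FPKM. Reg4, the most abundant of the list, was at 448, 246, 214 and 283 FPKM. Chga, Sst, Tph1 and Reg4 were highest in culture 1, and Cck and Sct were lowest there, Cck not when rescaled.

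Tuft cell genes were low, with a mean over 1 FPKM in 9 of 20 and over 10 FPKM in none. Only 5 of the 20 were over 1 FPKM in every culture. Pou2f3, the factor that sets the tuft fate, was at 1.7, 1.18, 1.37 and 1.77 FPKM, and Trpm5, the taste-type cation channel, was at 2.15, 1.17, 1.07 and 1.05 FPKM. Dclk1, the common tuft marker, had 0.879, 0.234, 0.303 and 0.45 FPKM. Avil, an actin-binding protein of the tuft, was the most abundant at 9.38, 1.22, 1.54 and 1.55 FPKM, with culture 1 above the others. Il25, the tuft cytokine, had a mean of 0.0149 FPKM and no read in cultures 1 and 4. Of 6 M cell genes 2 were over 1 FPKM, and Gp2 and Sox8 had no read.

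Stem cell and proliferation genes were expressed after 2 days of differentiation medium. All 16 stem genes had a mean over 1 FPKM, and the list summed to 1147, 1626, 1759 and 2341 FPKM. The sum was led by Olfm4, a secreted glycoprotein of crypt stem cells, at 525, 1227, 1293 and 1855 FPKM. Although the sum was lowest in culture 1, 10 of the 16 genes were highest there and 4 lowest. Lgr5, the receptor for R-spondins on stem cells, was at 27.6, 11.7, 15.3 and 15.1 FPKM. Ascl2, a transcription factor of stem cells, was at 29, 17.2, 20.9 and 16.8 FPKM. Axin2, a target of Wnt signalling, was at 14.5, 20.4, 21.7 and 23.9 FPKM, and Smoc2, a matrix protein of stem cells, was at 37.5, 25.3, 31.3 and 34.6 FPKM.

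All 20 proliferation genes had a mean over 10 FPKM, and they summed to 754, 832, 863 and 811 FPKM. Rescaled to equal sums of 1000000, the list was at 2087, 1652, 1599.9 and 1468, and culture 1 turned from lowest to highest. With TMM sizes it was at 681, 770, 788 and 750, and culture 1 stayed lowest. Mki67, a marker of cycling cells, was at 32, 36.8, 35.3 and 32.2 FPKM, and Pcna, the DNA clamp of replication, was at 126, 199.6, 221 and 203 FPKM. Top2a, a topoisomerase of dividing cells, was at 57.6, 62.2, 64 and 56.7 FPKM, and Ccnb1, the mitotic cyclin, was at 30.6, 35.2, 36.1 and 31.9 FPKM. Mcm7, a replication helicase, was on deposited FPKM one of the 8 most even genes over 50 FPKM (54.2, 56.9, 57.8 and 57 FPKM). On FPKM, culture 1 lay near the other cultures for Mki67 and Top2a, and below them for Pcna.

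Fetal and regenerative genes, which epithelium uses after injury, were a mixed list with 10 of 14 over 1 FPKM. Areg, an EGF receptor ligand, was at 263, 61.9, 71.2 and 53.6 FPKM, and Ly6a, the surface protein Sca-1, was at 98, 11.6, 14.4 and 10.6 FPKM. Both were highest in culture 1. Clu, of the revival stem cell, was at 3.8, 8.07, 9.13 and 9.66 FPKM, and Spp1 had a mean of 0.0378 FPKM. Krt7 was at 40.2, 36.4, 32.9 and 33.9 FPKM. The list sum was 442 FPKM in culture 1 and 153, 153 and 128 FPKM in the others.

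Of the ligands that make up the stem cell niche, 13 of 25 had a mean over 1 FPKM. Wnt3, the Wnt ligand of Paneth cells, was at 1.66, 2.13, 2.65 and 2.64 FPKM. Dll1 and Dll4, Notch ligands, had 5.38, 6.14, 6.35 and 6.92 FPKM and 2.81, 2.77, 2.74 and 2.54 FPKM. Ihh, the hedgehog ligand of enterocytes, was at 26.8, 18.8, 17.3 and 14.2 FPKM, and Btc, an EGF-family ligand, was at 35, 9.82, 13.8 and 9.68 FPKM. Egf had a mean of 0.12 FPKM, and Rspo1, Rspo2, Nog and Grem1, which the mesenchyme supplies in tissue, had no read. R-spondin and Noggin were added to the medium as protein.

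The receptors for lysophosphatidic acid were measured because the study activates LPAR5. Lpar5 was at 14.3, 8.06, 8.95 and 6.71 FPKM, Lpar1 at 5.75, 5.77, 6.26 and 5.47 FPKM, Lpar6 at 3.93, 4.14, 4.7 and 4.87 FPKM and Lpar2 at 1.82, 1.56, 1.67 and 1.78 FPKM. Lpar3 had a mean of 0.0347 FPKM, and Lpar4 had no read. Lpar5 was the highest of the family in every culture. Its value in culture 1 was above those in the others.

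Ion transport genes had a mean over 1 FPKM in 21 of 22 cases. Atp1b1, a subunit of the sodium pump, was at 418, 212, 235 and 219 FPKM. Cftr, the chloride channel, was at 68, 28.6, 28.7 and 27 FPKM, and Slc12a2, the chloride-loading cotransporter of secretory cells, was at 248, 119, 143 and 153 FPKM, both highest in culture 1. Slc9a3, the sodium-hydrogen exchanger NHE3, was at 4.8, 9.03, 8.39 and 7.07 FPKM, lowest in culture 1 but not when rescaled. Aqp1 and Aqp4, water channels, were at 45.3, 48.7, 45.4 and 52.4 FPKM and 24.7, 35.6, 36.8 and 36.9 FPKM.

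Transcription factors were expressed at 720 of 1469 annotated genes, with 164 over 10 FPKM. Of all protein-coding genes 10493 of 22046 were expressed, a share close to that of the factors. By family, 321 of 576 zinc finger (zf-C2H2) genes and 29 of 232 homeobox genes were expressed. The 10 most abundant were Ybx1, Atf4, Hnf4a, Hmgb2, Hmga1, Ybx3, Elf3, Nfe2l2, Hopx and Hnf4g, with means of 370.1 FPKM for Ybx1 to 75.4 for Hnf4g. Hnf4a, a regulator of enterocyte genes, was at 139, 128, 128 and 125 FPKM. Its CV was 4.96% on FPKM and 27% when rescaled. Hnf4g, its paralog, was at 41.2, 101, 81.7 and 78 FPKM, lowest in culture 1.

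Elf3, an epithelial factor, was at 149, 85.8, 92.5 and 83.2 FPKM and highest in culture 1. Cdx1 and Cdx2, which set intestinal identity, were at 70, 58.5, 70.9 and 77.9 FPKM and 78.2, 58.6, 68.5 and 65 FPKM. Prdm1, a factor of the fetal and suckling intestine, had 0.356, 0.323, 0.251 and 0.102 FPKM, and Isx, the homeobox gene of vitamin A control, was at 62.5, 69.3, 63.4 and 66.2 FPKM. Of the 32 intestinal factors in the list, 30 of 32 were over 1 FPKM, and their sum was 959, 899, 914 and 901 FPKM. The CV of this sum was 3.05% on FPKM and 24.7% when rescaled, where that of the goblet list was 6.58%.

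The 8 genes with the highest mean among long noncoding biotypes were Ifi30, Anxa13, 2410006H16Rik, Epb41l4aos, Cct6a, Gas5, Gm26917 and Gm10076. Ifi30, Anxa13 and Cct6a are names of coding genes, and their biotype in the files is processed transcript. Gas5, a host gene of small nucleolar RNAs, was at 83.5, 80.2, 75.1 and 81 FPKM. Epb41l4aos, a transcript named for the strand opposite to Epb41l4a, was at 78.2, 104, 111 and 154 FPKM. The strand setting of the counting is not given in the sources used here, so its reads cannot be told apart from those of the sense partner.

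Genes of energy metabolism and detoxification were next described. Nuclear genes of oxidative phosphorylation had 76 of 80 over 1 FPKM and summed to 6939, 14284, 14024 and 15414 FPKM. Atp5a1, a subunit of ATP synthase, was at 583, 571, 582 and 572 FPKM, the 4 cultures within 1.12% CV. Atp5k, another subunit of ATP synthase and a short gene, was at 8.12, 213, 157 and 222 FPKM.

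Fatty acid oxidation genes were expressed in 13 of 15 cases. Acaa2, the thiolase of mitochondrial oxidation, was at 69.8, 189.9, 202 and 180.1 FPKM, and Cpt1a, which starts the pathway, was at 14.3, 15.2, 15.7 and 14.1 FPKM. Pdk4, induced by fasting, had a mean of 0.335 FPKM, and Cyp4a10, an omega-hydroxylase, had 0.135 FPKM. Of the genes of xenobiotic metabolism all 23 were over 10 FPKM. Gstm1 and Gsta1, glutathione transferases, were at 304, 667, 563 and 509 FPKM and 71.9, 541, 596 and 515 FPKM, and Cyp3a11, a drug-metabolizing P450, was at 22, 81.4, 58.5 and 45.8 FPKM. Gsta1 and Cyp3a11 belong to families of near copies, so single values are uncertain.

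Cells other than epithelium left little signal. In the fibroblast list 1 of 11 genes were over 1 FPKM, and it summed to 8.17, 3.2, 3.39 and 3.48 FPKM. Vim, a filament of mesenchymal cells, made up nearly all of this (7.84, 3.02, 3.03 and 3.11 FPKM). Col1a2, Col3a1, Dcn and Lum had no read and Col1a1 a mean of 0.00834 FPKM. The immune list summed to 2.55, 2.57, 3.51 and 3.29 FPKM, led by Cd68 (2.1, 1.67, 3.02 and 2.35 FPKM), with no read of Cd3g, Cd4, Cd8a or Adgre1. The endothelial list had 1 of 6 genes over 1 FPKM and summed to 3.49, 3.26, 2.76 and 2.45 FPKM. The muscle, nerve and glia list had 1 of 8 and summed to 4.14, 2.14, 2.33 and 2.62 FPKM. Cdh5, Emcn and Kdr of endothelium, and Hbb-bs and Hba-a1 of erythroid cells, were at 0. Of the 42 genes in the fibroblast, endothelial, immune, muscle or nerve, and erythroid lists, 4 had a mean over 1 FPKM.

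The 4 cultures were next compared by their spread. The CV, which is the SD over the mean, had a median of 18.6% over the expressed genes, with quartiles of 10.7% and 30.6%. Without culture 1 it was 8.23%. The highest and the lowest culture differed by at least 4-fold on FPKM + 0.1 in 679 genes (5.52%), and without culture 1 in 173 (1.41%). Of the 679, 468 had their lowest value and 148 their highest in culture 1. The common biological coefficient of variation from edgeR's counts was 0.313 for all 4 cultures and 0.142 without culture 1.

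Most of this spread lay along one axis. The first principal component held 81.1% of the variance and set culture 1 against the others. The second held 11.5% and separated cultures 2 and 4. The deviations were related to gene length. Spearman's rho between a gene's deviation from the mean and its length was 0.40 in culture 1 and -0.20, -0.32 and -0.41 in cultures 2, 3 and 4 (12306 genes, which share libraries and are not independent). In culture 1 the median deviation was -0.37 log2 units for 879 genes under 500 bases and 0.18 for 3143 genes over 6000 bases.

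**Figure D4:**
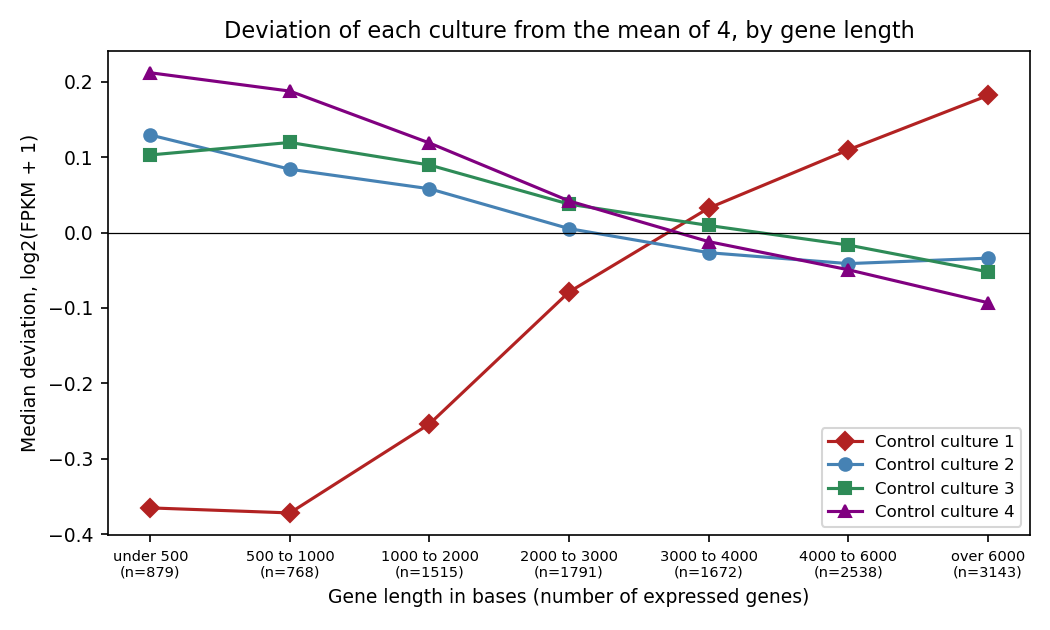
Median deviation of each control culture from the mean of the 4 cultures in log2(FPKM + 1) (vertical), for expressed genes in bins of length in bases (horizontal, number of genes in brackets). Culture 1 runs from -0.37 for genes under 500 bases to 0.18 for genes over 6000 bases, and the others run the opposite way, on FPKM as deposited. Deviations cancel over the 4 cultures for each gene, so an opposite course in the others together follows from the centering. When rescaled, culture 1 runs from -0.09 to 0.58.

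The lists were then compared before and after removal of the length trend. The enterocyte list (20 genes, median length 2972 bases) had a median deviation of -0.79 in culture 1, and of -0.82 after the length trend was removed from each culture, an alternative chosen after seeing the data. For the early response and stress list the value was 0.92 before and 1.09 after. For the ribosomal proteins it was -0.57 and -0.42, and for the Paneth list -1.23 and -0.81. The ribosomal and Paneth values were thus smaller without the trend, and the enterocyte and stress values were not. With FPKM rescaled the 4 lists were at -0.38, 1.36, -0.16 and -0.83 in the same order.

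**Figure D5:**
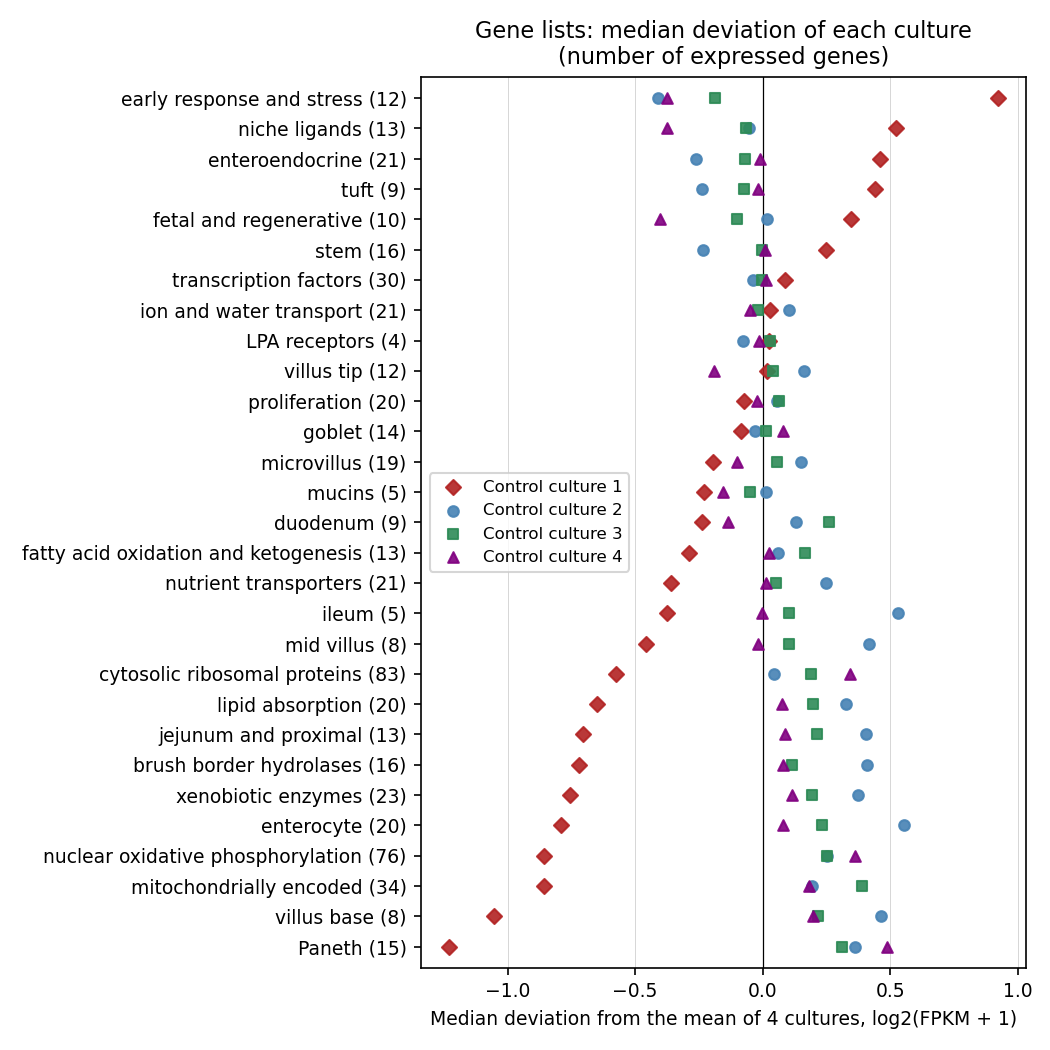
Median deviation of the expressed genes of each list from the mean of the 4 cultures in log2(FPKM + 1), with 1 point per control culture and the number of expressed genes in brackets. Stress, ligand, enteroendocrine and tuft lists lie to the right in culture 1, and Paneth, villus base, mitochondrial and enterocyte lists lie to the left, as they do when FPKM is rescaled.

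Stress genes were among those that set culture 1 apart. Trib3, a target of ATF4, was at 114, 10.7, 15.2 and 11.3 FPKM. Ddit3, the CHOP factor of the unfolded protein response, was at 52, 12.7, 12.9 and 11.3 FPKM, and Atf3 at 26.2, 5.48, 5.66 and 4.54 FPKM. Hspa5, the chaperone BiP, was at 282, 201, 233 and 200.4 FPKM. Fos and Ier2, early response genes, were at 12.1, 4.45, 4.14 and 3.84 FPKM and 102, 36.8, 43.5 and 41.4 FPKM. Hspa1a and Hspa1b, the heat shock chaperones, had means of 0.123 and 0.919 FPKM.

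The most even genes over 50 FPKM were Idh3g, Idh2, Atp5a1, Ap2m1, Dld, Ndufa10, Hsd17b12 and Mcm7, ordered by the spread of log2(FPKM + 1). Idh3g and Idh2, which are isocitrate dehydrogenases, were at 77.2, 78.4, 78.3 and 79.3 FPKM and 57.8, 58, 58.6 and 57 FPKM. Ap2m1, a subunit of the clathrin adaptor, was at 52.5, 51.6, 51 and 52.8 FPKM. Their CV ranged from 1.1% for Idh3g to 2.78% for Mcm7. This evenness is one of deposited FPKM, since with FPKM rescaled Idh3g, Idh2, Atp5a1 and Ap2m1 were highest in culture 1, with CVs of 20.2% to 22.1%.

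Among the 15 most variable genes over 10 FPKM were 4 processed pseudogenes, 2 defensin pseudogenes and the short genes Mir194-1 and Atp5k. Xist, the noncoding RNA of the inactive X chromosome, was at 85.5, 53.8, 0.0468 and 0.0437 FPKM. The Y-linked Eif2s3y, a translation initiation factor, was at 0, 0, 27.6 and 25 FPKM, and Ddx3y, Uty and Kdm5d were read only in cultures 3 and 4. Xist was thus high in cultures 1 and 2, and the Y-linked genes in cultures 3 and 4. St3gal4, a sialyltransferase, was at 2.1, 1.89, 57.2 and 58.4 FPKM. Defa3 and Zg16 were lowest in culture 1, as given above.

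Genes that varied most among cultures 2, 3 and 4 were named after their values were seen. Gapdh, the glycolytic enzyme, was at 9.25, 11.5, 75.8 and 92.9 FPKM, lower in cultures 1 and 2 than in cultures 3 and 4. Gm6969, a processed pseudogene, was at 3.54, 5.56, 15.2 and 219.8 FPKM, and Rpl30-ps10, a pseudogene of a ribosomal protein, at 119.7, 188, 37 and 111 FPKM. Gapdh and such pseudogenes have copies in the genome, and whether reads were placed on either was not tested. Gapdh split the cultures as Xist, the Y-linked genes and St3gal4 did, and no cause was tested.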

How the data were processed

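RNA of the 4 control cultures was read from the tables of the whole series, whose groups come from the sample labels. Per the labels, the authors deposited HTSeq 0.6.1 read counts per gene after alignment with STAR 2.5 to GRCm38 (mm10), and FPKM. The FPKM equal the deposited counts divided by gene length and by 1 size per library, which was 0.87 to 1.01 of the summed counts. TopHat and DESeq2, also in the submitters' notes, were not used here. Treatment of reads with several positions is not given in the sources used here. Cultures differ in depth by little, so a mean over 4 is limited by their number.

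From these values means, ranks, SDs, correlations and list sums were computed in Python 3.11.15 with pandas 2.3.3, scipy 1.17.1 and statsmodels 0.14.6, and TMM sizes and a common dispersion in edgeR 4.0.16 (R 4.3.3) from genes that reached 10 counts in 2 or more cultures, checked on simulated data. No groups were compared, and outlying cultures were marked by Dixon's critical value. Alternatives were each culture left out, FPKM rescaled to equal sums, TMM sizes, mitochondrial genes left out, other thresholds and, added later, length trends removed and genes of at least 200 bases. The genes named were the 25 highest by mean FPKM, the 15 most variable over 10 FPKM, the 8 most even over 50 FPKM, the 10 highest transcription factors, the 8 highest long noncoding genes and list members. The cultures and lists were chosen with earlier results of these data known. Promoters came from RefSeq. Some genes are not reported here.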

Additional observations from a re-analysis of the deposited data

Results flagged for a closer look

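In 40 of 224 values examined over the 4 cultures, 1 culture lay far from the other 3, by a gap to the nearest of them that passed Dixon's 95% critical value for 4 samples. Chance would flag about 1 in 20 of independent values chosen unseen. The values here share the same 4 libraries, include genes named for their spread, and list sums repeat their member genes. The 40 can thus not be set against that rate. In 35 of the 40 the outlying culture was culture 1, which was low in 10 and high in 25.

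Culture 1 was low for the number of genes over 100 FPKM (475), the summed nuclear genes of oxidative phosphorylation (6939 FPKM), Acaa2 (69.8 FPKM), Apoa4 (144 FPKM), Aqp4 (24.7 FPKM), Gsta1 (71.9 FPKM), Itln1 (813 FPKM), Muc13 (83.7 FPKM), Slc2a5 (10.7 FPKM) and Slc51b (1.27 FPKM). With FPKM rescaled to equal sums, Aqp4 was not lowest in culture 1.

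Culture 1 was high for the summed fetal and regenerative (442 FPKM), fibroblast (8.17 FPKM), niche ligand (383 FPKM) and early response and stress lists (704 FPKM). Among the ligand, stress and fetal genes it was high for Areg (263 FPKM), Btc (35 FPKM), Ly6a (98 FPKM), Atf3 (26.2 FPKM), Ddit3 (52 FPKM), Trib3 (114 FPKM), Fos (12.1 FPKM) and Ier2 (102 FPKM). Among the transporters and channels it was high for Atp1b1 (418 FPKM), Cftr (68 FPKM), Slc3a2 (65.5 FPKM) and Trpm5 (2.15 FPKM). The remaining high values were those of Avil (9.38 FPKM), Cdh1 (215 FPKM), Elf3 (149 FPKM), Fcgbp (83.9 FPKM), Muc2 (25.3 FPKM), Vim (7.84 FPKM), Nt5e (4.57 FPKM), Onecut3 (0.462 FPKM) and Fgf15 (0.579 FPKM).

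In the other 5 cases a different culture was outlying. Culture 2 was low for Chgb (81.9 FPKM) and high for Hoxb13 (0.0146 FPKM), culture 3 was high for Pdx1 (2.62 FPKM) and Spp1 (0.151 FPKM), and culture 4 was high for Gm6969 (219.8 FPKM). Hoxb13 and Spp1 rest on reads of 1 culture.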

How the results depend on the processing

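No paired analysis was possible because 1 group is described and no groups were compared. Of 129 alternative values for the main results, 93 stayed within the spread of the cultures, or within 1.5 times for counts, and 36 moved. For the list sums, leaving out 1 culture cannot shift a mean over 4 by as much as the SD, so those values could only stay. Rescaling to a sum of 1000000 changes the unit, and the list sums moved with it. These counts are therefore no measure of robustness. The order of the means of the 12 list sums was the same under all 4 scalings, and the same 25 and 100 most abundant genes were found with FPKM rescaled to equal sums and with TMM sizes. Each scaling multiplies the genes kept in a culture by the same factor, so these orders had little room to change. Rescaling FPKM to a sum of 1000000 in each culture, which changes every list sum, gave for the enterocyte list 27179, goblet 5465, Paneth 18527, enteroendocrine 1958, tuft 41.9, stem 3475, proliferation 1702, jejunum and proximal 13185, ileum 138, colon 5.26, fibroblast 10.4 and immune 6.15. With mitochondrial genes left out as well, these were 32875, 6570.1, 22348, 2345, 49.99, 4182, 2044, 15964, 166, 6.34, 12.4 and 7.40, and the 10 leading genes held 11.5%. With TMM sizes the proliferation sum was 747.

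The threshold of a mean over 5 FPKM left 7537 genes. The median CV was 30.7% with FPKM so rescaled, and 8.23% to 20.6% with 1 culture left out. Genes with a 4-fold range numbered 1322 when rescaled, 344 on FPKM + 1, 217 over a mean of 10 FPKM and 259 on FPKM + 1 with the length trend also removed, and 173 to 613 with 1 culture left out. The lowest correlation was 0.916 to 0.984 with 1 culture left out, and 0.973 with no filter on low genes. The cause was not tested. Culture 1 decided the median CV, the 4-fold count and the lowest correlation, at 8.23%, 173 and 0.984 without it.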

Other observations

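Some genes outside the lists described had high levels. Reg1, a secreted lectin of the regenerating gene family, was at 115, 1128, 1804 and 1111 FPKM, and Ldha, the lactate dehydrogenase subunit, was at 903, 1128, 1200.3 and 1079 FPKM. Xbp1, a factor of secretory cells, was at 83.6, 56.6, 60.4 and 55.5 FPKM, and Nupr1, a stress-induced nuclear protein, was at 65.3, 17.1, 24.9 and 26.8 FPKM, both highest in culture 1. The long noncoding RNAs Malat1 and Neat1 were at 38.6, 92.4, 70 and 59.5 FPKM and 16.2, 22.7, 18.6 and 20.1 FPKM. These genes were chosen after their values were seen. The early response and stress list had its sum in culture 1 at 704 FPKM and at 336 FPKM in the lowest culture.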
